A study of Mus musculus with 2 samples.

Results

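The dividing T and NK cells of the GL261 tumour-bearing mouse brain made up 496 of the 9685 cells that passed the filter, or 5.12%. They were selected on measured values: a cell was counted when its Mki67 and Top2a UMIs (unique molecular identifiers, each standing for 1 captured RNA molecule) summed to at least 3 and it carried at least 2 UMIs of the CD3 chain genes Cd3e, Cd3d and Cd3g, or at least 2 of the NK genes Ncr1 and Klrb1c. Cells with more than 1 UMI of Sox2 and Met, which mark the tumour cells, or more than 3 of Lyz2, a macrophage gene, were left out. Of these cells, 176 came from the library labelled wild type and 320 from the library labelled knockout. The study implanted GL261, a mouse glioma cell line, into the brains of mice whose genotype was given as C57BlL6 WT or Cacna1H-/-, so that the hosts and not the tumour cells differed. The tumour-bearing brain of each group was taken on day 24, dissociated with a MACS neural kit and sequenced as 1 single-cell 3′ library. No source used here gave the number, age or sex of the animals behind each library, so the genotype, the animals and the library cannot be told apart. No test between groups was possible, and each interval below covers counting error only.

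A lymphocyte that meets its antigen leaves its resting state, copies its DNA in S phase and separates the copies in mitosis, and effector T cells and NK cells can pass through many such rounds. Mki67 encodes a protein that coats mitotic chromosomes, and Top2a encodes the topoisomerase that untangles replicated DNA. T cells recognise antigen through a rearranged receptor held by the CD3 chains, whereas NK cells use germline-encoded activating and inhibitory receptors and share with CD8 T cells the granzymes and perforin that kill target cells. Cacna1h encodes Cav3.2, the pore of a T-type calcium channel.

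The targeted gene went against its labels. Cacna1h had 13 UMIs in all filtered cells of the library labelled wild type (0.250 UMIs per 1000000 UMIs, CPM) and 168 in the library labelled knockout (1.67 CPM). In dividing T cells it had 0 UMIs in the library labelled wild type, with a 95% Poisson upper limit of 1.71 CPM. The library labelled knockout had 20 UMIs in 19 of 282 cells (3.57 CPM, 95% Poisson interval 2.18 to 5.52). A floor of 3 counts over the group labelled wild type (1.39 CPM), which is not a limit, gave a 2.57-fold higher level in the library labelled knockout. The share of dividing T cells with a Cacna1h UMI was 6.74% there, at a median of 17732 UMIs per cell, against 0.699% of tumour cells of the same library at a median of 25992. Of the 20 UMIs, 8 lay in regulatory, 5 in conventional CD4 and 3 in CD8 T cells. Dividing NK cells had 0 UMIs in both libraries, with floors of 5.26 and 10.3 CPM. No source used here gave the deleted exons, and reads from the 3′ end may not check a deletion elsewhere in the gene, so the libraries are named by their labels throughout.

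The 2 libraries held 54556333 and 103261208 mouse UMIs, and the filter (at least 500 genes, at most 10% mitochondrial UMIs) left 3110 and 6575 cells. The library labelled wild type held Y-linked RNA and no cell with Xist alone, while the library labelled knockout held both kinds of cell, among them 200 dividing T cells with Xist only and 63 with Y-linked UMIs only. Of the barcodes of all cells, 21 occurred in both libraries, 7 of them among filtered cells and 0 among the dividing cells. A doublet caller marked 2 of the 176 and 6 of the 320 dividing cells, and none was removed. In the library labelled knockout 19 of the 320 dividing cells (5.94%) held both Xist and Y-linked UMIs, among them 16 of 282 T cells (5.67%). Of its non-dividing T cells 2.31% did, at a lower median depth (7493 against 17732 UMIs).

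T and NK cells were then told apart by a T gate (at least 2 UMIs of Cd3e, Cd3d and Trac) and an NK gate (at least 2 of Ncr1 and Klrb1c). In the library labelled wild type 133 dividing cells passed the T gate alone, 26 the NK gate alone and 17 both. In the library labelled knockout the numbers were 282, 18 and 20, and no dividing cell passed neither gate. T cells were thus 75.6% of the dividing cells in the library labelled wild type (95% Clopper-Pearson interval 68.5 to 81.7) and 88.1% in the library labelled knockout (84.1 to 91.5). NK cells were 14.8% (9.88 to 20.9) and 5.63% (3.37 to 8.74). Cells of both gates were 9.66% and 6.25%, with intervals that overlapped.

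The genes of the rule and gates are given as a description, since they chose the cells. Cd3e, a chain of the CD3 complex, stood at 376 and 461 CPM in dividing T cells (library labelled wild type and knockout) and at 0 UMIs in dividing NK cells of both libraries. Ncr1, the NK receptor NKp46, stood at 270 and 233 CPM in dividing NK cells, and at 0 and 0.357 CPM in dividing T cells. Mki67 was at 692 and 620 CPM in dividing T cells and at 543 and 350 CPM in dividing NK cells, where 1 cell of the library labelled knockout held 40.2% of its UMIs. Top2a was at 705 and 728 CPM in T cells and at 699 and 515 CPM in NK cells.

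The label was checked on genes that the rule did not use, the other 60 genes of the S phase and G2 and mitosis lists. A dividing cell was set against the 99th percentile of non-dividing T and NK cells of its library (3727 and 2521 CPM). In the library labelled wild type 148 of 176 dividing cells lay above it (84.1%), and in the library labelled knockout 228 of 320 (71.3%). Among T cells the numbers were 111 of 133 (83.5%) and 209 of 282 (74.1%). NK cells differed more, with 20 of 26 above (76.9%, 56.4 to 91.0) in the library labelled wild type and 7 of 18 (38.9%, 17.3 to 64.3) in the library labelled knockout. The name "dividing" thus held poorly for the NK cells labelled knockout, since 11 of the 18 did not exceed that percentile.

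The share above the percentile followed the number of UMIs in the rule. Of cells with 10 or more UMIs of Mki67 and Top2a, 122 of 123 and 193 of 194 lay above the percentile, whereas at exactly 3 UMIs 4 of 17 and 5 of 50 did. Just outside the threshold, the 39 and 147 T or NK cells with 2 UMIs had S phase sums of 1606 and 895 CPM and G2 and mitosis sums of 299 and 270 CPM. Just inside it, the 17 and 50 cells with 3 UMIs had S phase sums of 2373 and 995 CPM and G2 and mitosis sums of 503 and 278 CPM. All dividing cells together stood at 3084 and 2725 CPM for S phase and at 4353 and 3946 CPM for G2 and mitosis, while cells with 0 UMIs stood at 663 and 581 CPM and at 172 and 158 CPM.

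The share of each lineage that divided was lower in the library labelled knockout for NK cells and, by less, for T cells. Of the T cells, 133 of 590 divided in the library labelled wild type (22.5%, 19.2 to 26.1) and 282 of 1551 in the library labelled knockout (18.2%, 16.3 to 20.2). The ratio, labelled wild type over knockout, was 1.24 (1.03 to 1.49). Of the NK cells, 26 of 262 divided (9.92%, 6.59 to 14.2) against 18 of 606 (2.97%, 1.77 to 4.65), a ratio of 3.34 (1.86 to 5.99). Cells of both gates divided in 17 of 49 (34.7%) and 20 of 117 (17.1%), a ratio of 2.03 (1.17 to 3.53). NK cells as a whole were 8.42% of filtered cells in the library labelled wild type and 9.22% in the library labelled knockout.

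Depth differed between the libraries. Dividing T cells had a median of 14823 UMIs in the library labelled wild type and 17732 in the other, and dividing NK cells 21519.5 and 16258.5. When every cell was thinned to 5000 UMIs, which leaves out shallower cells, 22.5% of 475 T cells and 13.2% of 1412 divided, a ratio of 1.71 (1.38 to 2.12). Thinned NK cells divided in 14 of 153 (9.15%) and 5 of 424 (1.18%), a ratio of 7.76 (2.84 to 21.2). Counting only dividing cells above the division percentile gave 7.63% and 1.16% of NK cells, a ratio of 6.61 (2.83 to 15.4), and 18.8% and 13.5% of T cells, a ratio of 1.40 (1.13 to 1.72).

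Among cells with Y-linked but no Xist UMIs, the T cell shares were 24.4% and 22.3%. The ratio of shares (labelled knockout over wild type) was 0.912 (0.699 to 1.19). Thinned Y-linked T cells divided in 22.8% of 356 in the library labelled wild type and 13.4% of 217 in the library labelled knockout. Their ratio on the same scale was 0.587 (0.398 to 0.867), an interval that excludes equal shares. Without thinning, Y-linked NK cells divided in 26 of 209 in the library labelled wild type (12.4%). In the library labelled knockout 0 of 71 did, with a Clopper-Pearson upper limit of 5.06%. The 17 of 446 Xist-only NK cells that divided in the library labelled knockout were 3.81% (2.24 to 6.03). All but 1 of its 18 dividing NK cells were thus Xist-only.

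**Figure D1:**
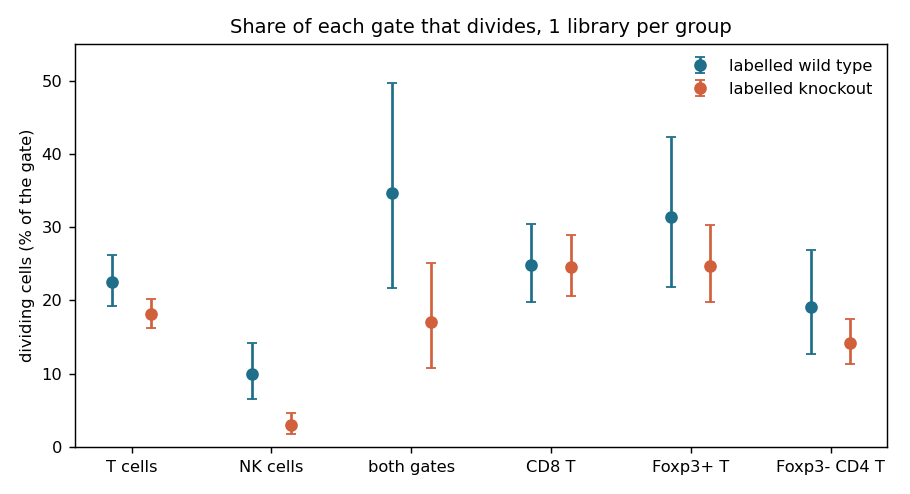
Percent of each gate that divides (y axis), for T cells, NK cells, cells of both gates and 3 T cell subsets (x axis), with 1 point per library and bars giving the 95% Clopper-Pearson interval, which covers counting error only. The NK points stand at 9.92% and 2.97% with bars that do not overlap, whereas the CD8 points stand at 24.8% and 24.6%.

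The subsets of dividing T cells were named by their co-receptors and by Foxp3, the master regulator of regulatory T cells. CD8 cells carried at least 2 UMIs of Cd8a and Cd8b1 and no Cd4, regulatory cells at least 1 Foxp3 UMI, and conventional CD4 cells at least 1 Cd4 UMI and no Foxp3. CD8 cells were 49.6% of dividing T cells in the library labelled wild type (40.8 to 58.4) and 37.9% in the library labelled knockout (32.3 to 43.9). Regulatory cells were 20.3% and 24.1%, and conventional CD4 cells 18.8% and 27.0%, both with overlapping intervals. Among non-dividing T cells the CD8 share was likewise higher in the library labelled wild type (43.7% against 24.5%). Y-linked dividing T cells had CD8 shares of 46.3% and 49.2%, the other way round, and Xist-only cells of the library labelled knockout had 35.5%.

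The share that divided was also counted within each subset. CD8 T cells divided in 66 of 266 (24.8%) and 107 of 435 (24.6%), a ratio labelled knockout over wild type of 0.991 (0.760 to 1.29). Regulatory T cells divided in 31.4% and 24.7% (0.788, 0.542 to 1.15) and conventional CD4 T cells in 19.1% and 14.2% (0.746, 0.495 to 1.12), all with intervals that include equal shares. In both libraries regulatory cells were more frequent among dividing than among non-dividing T cells, at 20.3% against 11.1% in the library labelled wild type and 24.1% against 14.2% in the library labelled knockout. The intervals overlapped in the former, and after thinning to 5000 UMIs the shares were 14.0% against 6.07% and 16.1% against 12.5%. Thinned regulatory T cells divided in 35.7% of 42 and 15.8% of 190, a ratio of 0.442 (0.262 to 0.745).

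Receptor segments were counted in each gate. A Trbv UMI, from a rearranged T cell receptor beta variable segment, was found in 28 of 133 dividing T cells labelled wild type (21.1%) and 71 of 282 labelled knockout (25.2%). It was found in 0 of 26 and 0 of 18 dividing NK cells, with Clopper-Pearson upper limits of 13.2% and 18.5%. Cells of both gates had one in 1 of 17 and 3 of 20. Tumour cells, with median depths of 31563 and 25992 UMIs, had one in 1 of 533 and 0 of 858. The beta constant segment Trbc1 gave 35.2% and 35.5% of the Trbc1 and Trbc2 UMIs in dividing T cells, 78.4% and 63.4% in dividing NK cells and 35.6% and 34.7% in cells of both gates. Dividing T cells used many segments: 16 of the 35 Trbv segments had a UMI in each library. The most frequent was Trbv3 in the library labelled knockout, with 14 of the 71 cells, and Trbv13-2 and Trbv12-2 in the library labelled wild type, with 4 of 28 cells each.

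The balance of S phase and mitosis genes was alike in the dividing T cells of both libraries, while median levels per cell were lower in the library labelled knockout. The median S phase sum was 2956 CPM in the library labelled wild type and 2150 CPM in the library labelled knockout. The median G2 and mitosis sum was 3845 and 3243 CPM. The G2 and mitosis sum was 1.44 times the S phase sum in dividing T cells labelled wild type and 1.51 times in those labelled knockout, and it exceeded the S phase sum in 48.1% and 47.9% of cells. In dividing NK cells the ratio was 1.09 and 0.918, and mitosis genes led in 42.3% (23.4 to 63.1) and 22.2% (6.41 to 47.6) of cells. Cells of both gates had 1.82 and 0.919. CD8, regulatory and conventional CD4 cells had 1.49, 1.58 and 1.36 in the library labelled wild type and 1.55, 1.51 and 1.52 in the library labelled knockout.

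**Figure D2:**
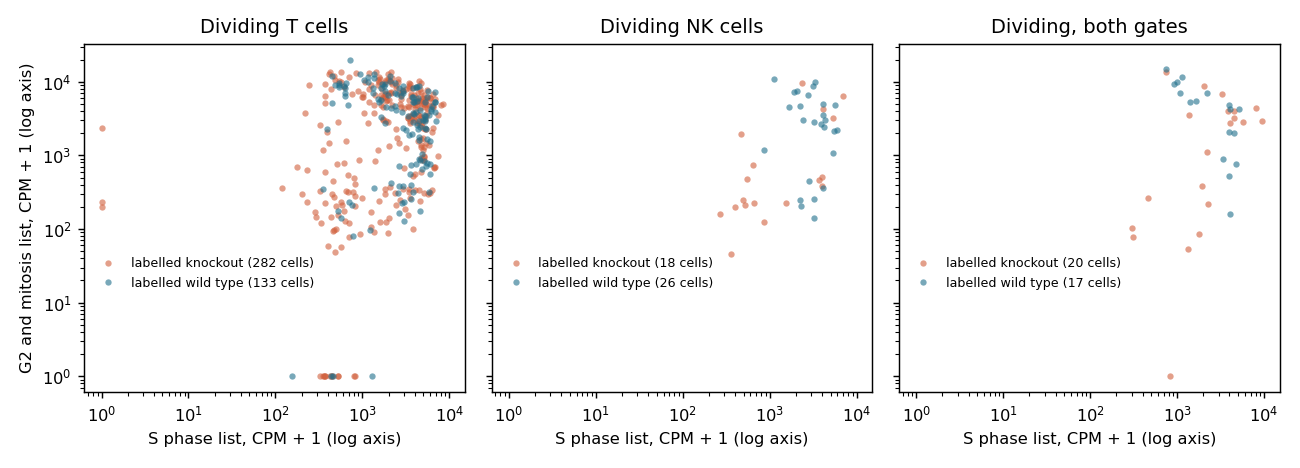
Summed CPM + 1 of the S phase list (x axis, log) against the G2 and mitosis list (y axis, log) for each dividing cell, in 1 panel each for T cells, NK cells and cells of both gates, coloured by library. Most T cells lie in an arc of high S phase or high mitosis values, while 11 of the 18 NK cells labelled knockout did not exceed the division percentile.

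Dividing T cells were next set beside non-dividing T cells of the same library (0 UMIs of Mki67 and Top2a, 332 and 865 cells). Because the rule used this contrast, the division genes are a description. Each list was read on the smaller of the 2 libraries' log2 CPM ratios, set to 0 where their signs differed. On that measure 9.95% of the 8008 genes measured (at least 50 UMIs over the cells compared) exceeded 1.5-fold upwards in dividing T cells and 7.26% exceeded it downwards, with a median of 0. At 2-fold, 408 genes were higher (5.09%) and 145 lower (1.81%). Median depths differed, with 14823 and 6195.5 UMIs per cell under the wild-type label and 17732 and 7493 under the knockout label.

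All 32 G2 and mitosis genes and all 28 S phase genes were at least 1.5-fold higher in dividing T cells of both libraries, with medians of 5.32 and 2.16. Cenpf, a kinetochore protein of mitosis, stood at 1.75 CPM in non-dividing and 264 CPM in dividing T cells labelled wild type, and at 1.73 and 238 CPM in those labelled knockout. Hmmr, which binds spindle microtubules, went from 1.31 to 127 CPM and from 1.06 to 111 CPM. Aspm, a spindle pole protein, went from 0.876 to 77.5 CPM and from 0.929 to 65.9 CPM. Pclaf, a partner of the replication clamp PCNA, went from 5.69 to 506 CPM and from 2.66 to 432 CPM. The other leading genes were Bub1, Kif4, Birc5, Ccna2, Neil3 and Nusap1, with Ccna2, cyclin A2, at 0 CPM in non-dividing T cells labelled wild type and 123 CPM in dividing ones.

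The promoters of 4 of these genes are printed because the 2 lists differ in known promoter elements: the cell cycle homology region of late genes (CHR, TTTGAA) and the E2F-type site of early ones. Each line covers 250 bases before to 50 bases after the RefSeq start in GRCm38.p6, with the match in capitals and positions counted from the start as +1.
Cenpf: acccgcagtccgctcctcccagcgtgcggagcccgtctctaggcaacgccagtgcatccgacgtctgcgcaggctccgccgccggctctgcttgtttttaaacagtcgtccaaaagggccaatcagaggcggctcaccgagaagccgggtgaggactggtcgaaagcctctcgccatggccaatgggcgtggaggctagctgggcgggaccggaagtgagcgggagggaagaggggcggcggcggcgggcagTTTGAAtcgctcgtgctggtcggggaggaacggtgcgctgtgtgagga
Hmmr: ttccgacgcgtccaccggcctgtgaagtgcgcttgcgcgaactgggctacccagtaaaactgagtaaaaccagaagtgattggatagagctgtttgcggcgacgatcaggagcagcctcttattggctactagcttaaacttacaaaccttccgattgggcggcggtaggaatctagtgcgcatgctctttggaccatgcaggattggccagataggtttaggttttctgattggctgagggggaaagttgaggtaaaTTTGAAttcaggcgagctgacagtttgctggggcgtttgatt
Aspm: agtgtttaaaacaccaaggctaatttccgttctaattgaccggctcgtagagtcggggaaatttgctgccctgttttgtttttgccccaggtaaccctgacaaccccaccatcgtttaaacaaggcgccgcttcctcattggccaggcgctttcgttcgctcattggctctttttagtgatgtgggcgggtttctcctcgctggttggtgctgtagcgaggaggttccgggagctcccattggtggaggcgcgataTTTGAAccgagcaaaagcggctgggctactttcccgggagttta
Pclaf: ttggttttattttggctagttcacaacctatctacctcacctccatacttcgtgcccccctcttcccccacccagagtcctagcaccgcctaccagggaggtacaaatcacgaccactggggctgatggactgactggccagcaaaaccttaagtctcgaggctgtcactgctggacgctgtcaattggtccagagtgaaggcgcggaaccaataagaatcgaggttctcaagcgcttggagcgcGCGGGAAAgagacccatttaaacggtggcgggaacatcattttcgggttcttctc
Cenpf lies at chr1:189688037-189688336 on the minus strand with TTTGAA at +3, Hmmr at chr11:40733388-40733687 on the minus strand with it at +9, and Aspm at chr1:139454523-139454822 on the plus strand with it at +7. Pclaf lies at chr9:65890073-65890372 on the plus strand with the E2F-type letters at -5. On either strand, TTTGAA was present in 19 of 26 G2 and mitosis genes with a window (73.1%), in 3 of 24 S phase genes (12.5%) and in 20.2% of all 27025 genes. TTTGGCGC, TTTCGCGC or TTTCCCGC on either strand was present in 11 of 24 S phase genes (45.8%), in 1 of 26 G2 and mitosis genes and in 2.12% of all genes. These 4 promoters were picked after their matches were seen, and Kif4 also held TTTGAA, at +20. Of the other leading genes, Bub1, Birc5, Neil3 and Nusap1 held neither in this window, and Ccna2 was not matched. A match describes letters and not a bound site.

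Genes beyond the division machinery also differed between dividing and non-dividing T cells in both libraries. Of 15 chromatin and tubulin genes measured, all 15 were higher, and of 19 genes of nucleotide and one-carbon synthesis 15 were higher (median 0.84). Tk1, thymidine kinase, went from 8.32 to 120 CPM in the library labelled wild type and from 4.78 to 93.96 CPM in the other. Of 15 glycolysis genes 7 were higher (median 0.51), among them Gapdh, from 999.9 to 1768 CPM and from 1042 to 1587 CPM. Of 11 sterol synthesis genes 3 were higher. Idi1, isopentenyl diphosphate isomerase, went from 15.3 to 46.4 CPM and from 8.63 to 18.8 CPM.

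Genes of quiet and circulating T cells were lower. Of 12 naive and memory genes 7 were at least 1.5-fold lower (median -0.85) and none was higher. S1pr1, the receptor by which T cells leave tissue, went from 51.7 to 8.36 CPM and from 59.8 to 14.8 CPM, and Tcf7, a transcription factor of memory cells, from 120 to 26.9 CPM and from 95.7 to 33.2 CPM. The interferon list had 14 of 23 lower and none higher (median -0.74 on the same scale). Ifit1, an interferon-induced RNA sensor, went from 61.8 to 9.28 CPM and from 94.9 to 23.4 CPM. Markers of other cells were lower in the same contrast. The dendritic cell list went from 1823 to 422 CPM (5 of 6 measured genes lower, 2 of 12 at 0 UMIs in dividing cells) and from 2197 to 1105 CPM (8 of 12 lower). The macrophage list went from 126 to 61.7 CPM (3 of 4 lower) and from 381 to 109 CPM (8 of 8 lower). Their part in the interferon values was not tested. Among cell cycle brakes 3 were higher (Cdkn2c, Cdkn2d and Cdkn1a) and 5 lower, of 13. Klf2, which holds T cells in quiescence, went from 363 to 116 CPM and from 283 to 94.7 CPM.

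Trdc, the constant segment of the delta T cell receptor, came first among the lower named genes on the smaller of the 2 ratios. It went from 108 to 6.03 CPM in the library labelled wild type and from 161 to 28.05 CPM in the other, and Cd163l1, a scavenger receptor of gamma delta T cells, from 122 to 4.18 CPM and from 94.9 to 18.0 CPM. The other named genes that were lower were Slfn5, Klf3, Scml4, Tmem176a, Kdm5b and the interferon-induced Ifit3. Checkpoint genes had 0 of 14 past 1.5-fold in either direction. Cytotoxic effectors went opposite ways in the libraries: 8 of 18 were higher and 3 lower in the library labelled wild type (median 0.14), and 0 higher and 7 lower in the library labelled knockout (median -0.38). On the smaller ratio 0 were higher and 2 lower.

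**Figure D3:**
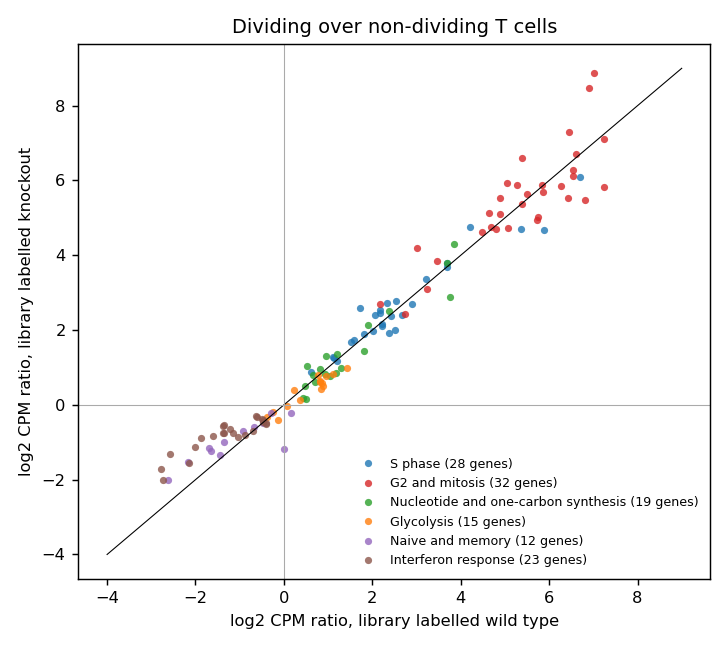
Log2 CPM ratio of dividing over non-dividing T cells in the library labelled wild type (x axis) against the library labelled knockout (y axis), with 1 point per measured gene of 6 lists and a line of equal ratios. The G2 and mitosis genes (median 5.32) lie at the upper right and the interferon genes at the lower left; both axes share the rule, so the upper right is a description.

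Dividing NK cells were set beside non-dividing NK cells (200 and 504 cells) on the same measure. Here 6.69% of 5355 genes were at least 1.5-fold higher in both libraries and 8.1% at least 1.5-fold lower. All 6 measured G2 and mitosis genes, 13 of 15 S phase genes and 14 of 14 chromatin and tubulin genes were higher, and 5 of 7 naive and memory genes were lower. The libraries differed in other lists, counted here in each library alone. Counted so over all genes, 16.7% lay past 1.5-fold upwards and 20.5% downwards under the wild-type label. Under the knockout label these backgrounds were 14.7% and 20.5%. Glycolysis had 9 of 12 genes higher and 2 lower in the library labelled wild type, but 2 higher and 2 lower in the library labelled knockout. Cytotoxic effectors had 5 of 15 higher and 3 lower in the former (median 0.09), and 1 of 13 higher and 8 lower in the latter (median -1.19). Pclaf went from 1.54 to 541 CPM in the library labelled wild type and from 1.44 to 340 CPM in the library labelled knockout. Klf2 went from 549.6 to 94.6 CPM and from 641 to 148 CPM. Ccl5, a chemokine of cytotoxic lymphocytes, went from 2716 to 284 CPM and from 4923 to 1538 CPM, although 1 cell held 69.1% of its UMIs among the dividing NK cells labelled wild type. The other named genes that were lower were Kdm7a, Btbd11, Mirt1, Cxcr4, Gramd3, Tcf7, Slc26a11, Adora2a and Pde2a.

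Dividing NK cells were then compared with dividing T cells. Of 6615 genes, 4.94% exceeded 1.5-fold upwards in NK cells of both libraries and 8.18% downwards. At 2-fold, 145 were higher (2.19%) and 282 lower (4.26%). Beyond the genes of the gates, 13 of 18 NK receptor and adaptor genes were higher and 0 lower (median 1.62). Klra4, of the Ly49 family of receptors for MHC class I, stood at 0 and 0.357 CPM in T cells and at 389 and 553 CPM in NK cells. Tyrobp, the adaptor DAP12 that carries signals of activating NK receptors, stood at 20.9 and 41.3 CPM in T cells and at 853 and 1078 CPM in NK cells. Of 14 T cell receptor signalling genes 13 were lower and 0 higher (median -2.10). Themis, a T cell signalling protein, stood at 657 and 545 CPM in T cells and at 0 UMIs in NK cells of both libraries.

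Killing genes split between the lineages, with 6 of 17 cytotoxic effectors higher and 4 lower in dividing NK cells. Gzmc, granzyme C, stood at 279 and 55.2 CPM in dividing T cells and at 9139 and 4496 CPM in dividing NK cells. Perforin, Prf1, stood at 118 and 92.5 CPM against 612 and 216 CPM. Ifng, interferon gamma, was lower in NK cells, at 437 and 381 CPM in T cells against 61.3 and 48.0 CPM. Of 14 checkpoint genes 8 were lower and 2 higher. Pdcd1, the receptor PD-1, stood at 137 and 138 CPM in T cells and at 0 UMIs in NK cells, and Ctla4 at 1124 and 1109 CPM against 105 and 89.2 CPM. Of the division genes 0 of 28 S phase genes and 5 of 32 G2 and mitosis genes were lower in NK cells, Cks2 most (285 and 270 CPM against 133 and 110 CPM).

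Cells of both gates had at least 2 UMIs of each gate's genes by their definition. Set beside dividing T cells, where 3.22% of 6368 genes exceeded 1.5-fold upwards and 5.94% downwards in both libraries, 11 of 15 NK receptor genes were higher and 1 lower. Fcer1g, an adaptor of Fc and NK receptors, stood at 71.0 and 55.7 CPM in dividing T cells and at 1027 and 786 CPM in cells of both gates. Maf, a transcription factor of helper T cells, stood at 209 and 292 CPM in dividing T cells and at 24.3 and 23.3 CPM in cells of both gates. Tnfrsf4, the costimulatory receptor OX40, stood at 494 and 583 CPM against 12.1 and 41.9 CPM. Of the 20 cells of both gates labelled knockout, 2 held both Xist and Y-linked UMIs. A doublet of a T and an NK cell would also pass both gates, and its part in these values was not tested.

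Between the libraries, dividing T cells labelled knockout had more interferon-induced RNA and less of the granzymes and of the enzymes of sterol and nucleotide synthesis. The background was 7.81% of 9154 genes at least 1.5-fold higher in the library labelled knockout and 3.55% at least 1.5-fold lower, with a median log2 ratio of -0.01. At 2-fold, 262 genes were higher (2.86%) and 58 lower (0.634%). Among Y-linked cells alone the balance turned over, with 71 of 7050 genes higher at 2-fold (1.01%) and 105 lower (1.49%), and the cytotoxic list had a median of 0.07.

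Of 24 interferon response genes 14 were at least 1.5-fold higher and 1 lower in dividing T cells labelled knockout, with a median log2 ratio of 0.67. Isg15, a ubiquitin-like modifier, stood at 106 CPM in the library labelled wild type and 197 CPM in the library labelled knockout. Oasl2 went from 6.96 to 20.5 CPM (log2 1.56, 0.78 to 2.44) and Ifit3 from 11.1 to 30.7 CPM (1.46, 0.84 to 2.14). Ifit3b had the largest ratio, 2.21, from only 4 and 48 UMIs. Ifi213, a DNA sensor of the Ifi200 family, was the gene that was lower, at 22.3 and 5.54 CPM (-2.01, -2.71 to -1.33). Outside the list, Ifi27l2a, also induced by interferon, stood at 604 and 1659 CPM (1.46, 1.37 to 1.54).

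Each subset showed interferon genes in the same direction. In dividing CD8 cells 11 of 20 were higher and 0 lower (median 0.67), beside 6.42% of all genes higher. In regulatory cells 8 of 20 were higher (median 0.43, beside 9.55%) and in conventional CD4 cells 8 of 15 (median 0.70, beside 10.0%). Y-linked cells alone gave 7 of 20 higher and a median of 0.30, beside 4.92% of genes higher. Within the library labelled knockout, Y-linked dividing T cells had 0 of 22 higher and 4 lower than Xist-only ones (median -0.23, beside 2.67% of genes higher and 7.59% lower). Among non-dividing T cells 4 of 24 were higher and 1 lower, with a median of 0.24 and backgrounds of 6.53% and 4.04%. The direction was not particular to T cells. In dividing NK cells 5 of 8 were higher and 1 lower (median 0.76, beside 14.9% and 17.6% of genes). In non-dividing NK cells 5 of 23 were higher and 3 lower (median 0.29, beside 7.53% and 5.39%).

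Genes of other cells moved in the same direction in these dividing T cells. The dendritic cell list summed to 422 CPM in the library labelled wild type and 1105 CPM in the library labelled knockout, with 6 of 8 measured genes higher and 2 of its 12 genes at 0 UMIs in the former. Its Cd74, the class II invariant chain, stood at 194 and 528 CPM. The macrophage list summed to 61.7 and 109 CPM (4 of 6 measured genes higher, with Mrc1 at 0 UMIs in both libraries), the B cell list to 56.6 and 108 CPM, the microglia list to 59.4 and 106 CPM and the tumour list to 69.2 and 140 CPM. Their part in the interferon result was not tested.

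Cytotoxic effectors were lower in dividing T cells labelled knockout, with 8 of 18 at least 1.5-fold lower, 0 higher and a median of -0.38. Their sum was 13888 CPM in the library labelled wild type and 8862 CPM in the library labelled knockout. Gzma, granzyme A, had the most UMIs and stood at 5528 and 2035 CPM (-1.44, -1.48 to -1.40), and Gzmb at 1674 and 905 CPM. Xcl1, a chemokine that draws dendritic cells, stood at 294 and 116 CPM (-1.34, -1.50 to -1.18), and 1 cell held 23.1% and 37.6% of its UMIs. The chromosome 14 granzymes rested on few cells: 1 cell held 100% of the Gzmg UMIs and 99.1% of the Gzmd UMIs in the library labelled wild type, and 86.5% and 90% in the library labelled knockout. Gzmc, at 279 and 55.2 CPM, had 52.4% and 60.5% of its UMIs in 1 cell and turned to a log2 ratio of 0.28 (0.01 to 0.54) in Y-linked cells alone. Gzme stood at 33.4 and 9.47 CPM.

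The cytotoxic values varied with the subset and with the kind of cell. In dividing CD8 cells 7 of 18 were lower and 1 higher (median -0.11, beside 5.55% of genes lower), with Gzma at 9817 and 5007 CPM, and in conventional CD4 cells 7 of 12 were lower (median -0.83, beside 8.19%). In regulatory cells 6 of 11 were higher and 1 lower (median 0.70, beside 9.55% higher and 6.32% lower). The list summed to 4325 CPM in both libraries over these 27 and 68 regulatory cells. Among Y-linked cells alone 3 of 17 were higher and 3 lower, with a median of 0.07, beside 4.92% of genes higher and 7.84% lower. Non-dividing T cells had 6 of 18 higher and 2 lower, with a median of -0.08.

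The sterol and nucleotide lists were lower in dividing T cells labelled knockout. Of 14 sterol synthesis genes 6 were at least 1.5-fold lower and 0 higher (median -0.46). Fdps, farnesyl diphosphate synthase, stood at 110 and 34.1 CPM (-1.69, -1.97 to -1.41), Idi1 at 46.4 and 18.8 CPM, and Cyp51, a demethylase of the pathway, at 64.5 and 32.2 CPM. In CD8 cells 6 of 9 were lower (median -1.24), in Y-linked cells 9 of 11 (median -0.97), and in non-dividing T cells 4 of 14 (median -0.45).

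Of 20 nucleotide and one-carbon genes 4 were lower and 0 higher (median -0.42), and among Y-linked cells 10 of 19 (median -0.61). Mthfd1, of folate metabolism, stood at 52.9 and 31.6 CPM, Cad, which starts pyrimidine synthesis, at 25.5 and 15.7 CPM, and Gart, of purine synthesis, at 44.6 and 29.5 CPM. Dctpp1 stood at 154 and 101 CPM. Dut, the dUTPase and the member with most UMIs, stood at 546 and 410 CPM (-0.41, -0.51 to -0.31). S phase genes had 0 of 28 past 1.5-fold in either direction (median -0.17), and G2 and mitosis genes 1 of 32 lower (median -0.12), Kif2c at 49.2 and 29.5 CPM.

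Other lists of dividing T cells had few members past 1.5-fold, some in shares above the background of 7.81% higher and 3.55% lower. Naive and memory genes had 3 of 12 higher and 1 lower, migration genes 3 of 15 higher and 1 lower, and NK receptors 2 of 15 higher and 3 lower (median -0.33). Glycolysis had 1 of 15 higher and 0 lower, checkpoints 0 of 14 higher and 2 lower (Cd200r4 at 24.6 and 9.65 CPM, and Cd160 at 96.1 and 52.3 CPM), and T cell receptor signalling 1 of 16 higher. Ctla4 stood at 1124 and 1109 CPM (-0.02, -0.09 to 0.05). Foxp3 was higher in the library labelled knockout, at 35.8 and 68.4 CPM, and Eomes, a transcription factor of cytotoxic cells, lower at 19.5 and 8.22 CPM. Il17a, the cytokine of type 17 T cells, had 0 UMIs in the library labelled wild type and 63 in the library labelled knockout, all in 5 cells. Of 7 measured calcium channel genes 1 was higher: Cacna1s stood at 6.03 and 10.9 CPM, Stim1, the store sensor, at 138 and 103 CPM, and Orai1, its pore, at 105 and 139.5 CPM.

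Among named genes at 50 CPM or more that were higher in dividing T cells labelled knockout, the first by ratio was Dnah8, a dynein heavy chain on chromosome 17, which also carries Cacna1h. It had 65 UMIs, in 41 cells labelled wild type, and 1038 UMIs, in 216 cells labelled knockout (30.2 and 185 CPM, log2 2.62, 2.26 to 3.00). Styk1, a kinase-like membrane protein, stood at 37.1 and 106 CPM. Hist1h2ap, a histone H2A gene, stood at 193 and 450 CPM, and Lgals7, galectin-7, at 42.7 and 107 CPM. Dlg2, Prickle1, Klf12 and Frmd5 were also among the highest, and 1 cell held 85.1% of the Frmd5 UMIs in the library labelled wild type. Y-linked cells alone gave Klf12 the other direction (log2 -0.37, -1.18 to 0.41). Besides granzymes, Xcl1 and Fdps, the lowest were Slc16a10, an amino acid transporter, at 62.7 and 22.0 CPM, Srm, spermidine synthase, at 56.6 and 27.5 CPM, Fgf13 at 138 and 65.9 CPM and Zfp52 at 63.1 and 25.9 CPM. Fgf13 also turned in Y-linked cells, to 0.22 (-0.07 to 0.50).

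In dividing NK cells the libraries were compared over 26 and 18 cells, of which 20 and 7 exceeded the division percentile. These cells summed to 570653 and 291374 UMIs, against 2154116 and 5598079 in dividing T cells. Shares of genes past a cut thus carry more counting error here and cannot be set against those of T cells. Of 3157 genes 14.9% were at least 1.5-fold higher in the library labelled knockout and 17.6% at least 1.5-fold lower, with a median of 0.00. At 2-fold, 144 genes were higher (4.56%) and 185 lower (5.86%).

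Division genes were lower in the NK cells labelled knockout. Of 20 S phase genes 8 were lower and 0 higher (median -0.32), and of 20 G2 and mitosis genes 12 were lower and 0 higher (median -0.75). Rrm2, which makes deoxynucleotides, stood at 240 CPM in the library labelled wild type and 99.5 CPM in the library labelled knockout, Tyms, which makes thymidylate, at 189 and 78.9 CPM, and Fen1, a flap nuclease of replication, at 77.1 and 24.0 CPM. Birc5, survivin, stood at 296 and 124 CPM, Ccnb2, cyclin B2, at 87.6 and 37.8 CPM, and Ckap2l, a spindle protein, at 77.1 and 24.0 CPM. Of 10 cell cycle brakes 6 were higher and 1 lower (median 0.64). Rb1, the retinoblastoma protein, stood at 49.1 and 151 CPM and Btg1, an antiproliferative factor, at 373 and 782.5 CPM, while Cdkn2c stood at 73.6 and 34.3 CPM.

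Killing and glycolysis genes were lower in the same cells. Of 13 cytotoxic effectors 7 were lower and 1 higher (median -1.02), and the list summed to 36758 and 16968 CPM. Gzma stood at 14150 and 3405 CPM (-2.06, -2.15 to -1.96), Gzmb at 6268 and 2303 CPM and Prf1 at 612 and 216 CPM (-1.50, -1.91 to -1.11). Ccl5 was the gene that was higher, at 284 and 1538 CPM, with 69.1% of its UMIs labelled wild type in 1 cell. Gzmf had 542 UMIs in 1 cell labelled wild type and 0 in the library labelled knockout. Gzmd had 70.4% of its 179 UMIs in 1 cell and 5 UMIs in the other library. In non-dividing NK cells 3 of 16 were higher and 3 lower (median 0.02, beside 7.53% and 5.39% of genes), and Gzma stood at 8076 and 8713 CPM.

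Of 9 glycolysis genes 7 were lower (median -1.03). Ldha, lactate dehydrogenase, stood at 773 and 281 CPM. Pkm, pyruvate kinase, stood at 470 and 185 CPM. For Gapdh the levels were 1384 and 680 CPM. Of 10 nucleotide synthesis genes 6 were lower and 0 higher (median -0.80). Fdps stood at 191 and 17.2 CPM (-3.48, -5.13 to -2.21). NK receptors went the other way, with 9 of 20 higher and 1 lower (median 0.49). Cd226, the activating receptor DNAM-1, stood at 77.1 and 237 CPM, Klrc2, the receptor NKG2C, at 73.6 and 158 CPM, and Itga2, the integrin CD49b of NK cells, at 42.1 and 96.1 CPM. Fcer1g, the member with most UMIs, stood at 1859 and 1431 CPM (-0.38, -0.54 to -0.21).

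Single genes of dividing NK cells rested on small numbers. Fcgr3, an activating receptor for antibody, had 12 and 40 UMIs (21.0 and 137 CPM), and Plac8, an interferon-inducible protein of immune cells, 82 and 219 UMIs (144 and 752 CPM). Kdm6a, an X-linked demethylase, stood at 42.1 and 161 CPM, where 17 of the 18 cells labelled knockout were Xist-only and none of the 26 labelled wild type was. Furin, Trim12c, AC149090.1, Clec2d, Taco1 and Ust were also among the highest, and Fuca1, Ece1, Impa2, Tuba4a, Ccl3 and Sdhc among the lowest. Ccl1, a chemokine, had 132 UMIs in the library labelled wild type, 93.2% of them in 1 cell, and 0 in the other. The dendritic cell list summed to 3584 and 1112 CPM in dividing NK cells, and its part in these results was not tested.

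**Figure D4:**
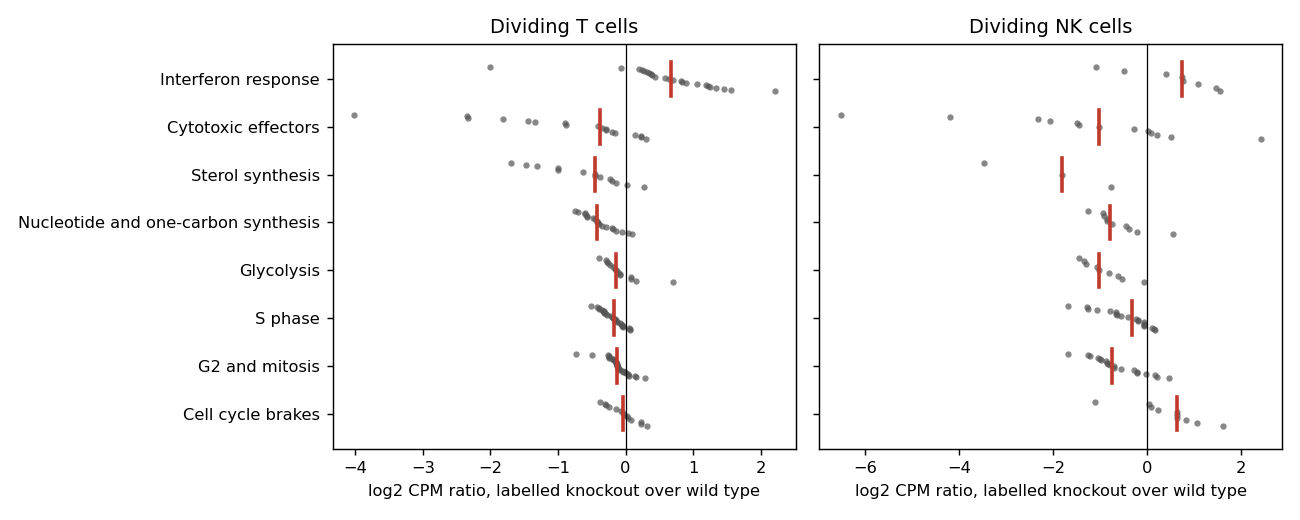
Log2 CPM ratio, labelled knockout over wild type, of each measured gene (point) of 8 lists, with a bar at the list median. The panels show dividing T cells and dividing NK cells. Gzmf, at 0 UMIs in the NK cells labelled knockout, is drawn at the floor of 3 counts. Interferon response lies to the right in both panels (medians 0.67 and 0.76, the latter over 8 measured genes). Cytotoxic effectors (-0.38 and -1.02) lie to the left in both.

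Levels over the 4 classes of cell showed how far each difference reached beyond division. Fdps was lower in the library labelled knockout in dividing T cells (110 and 34.1 CPM), non-dividing T cells (43.8 and 23.2 CPM), dividing NK cells (191 and 17.2 CPM) and non-dividing NK cells (38.4 and 9.50 CPM). Gzmc stood at 9139 and 4496 CPM in dividing and at 4353 and 752 CPM in non-dividing NK cells. Gzmb stood at 1674 and 905 CPM in dividing T cells and at 6268 and 2303 CPM in dividing NK cells. Gzmb, Prf1 and Isg15 were named after their values were seen.

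**Figure D5:**
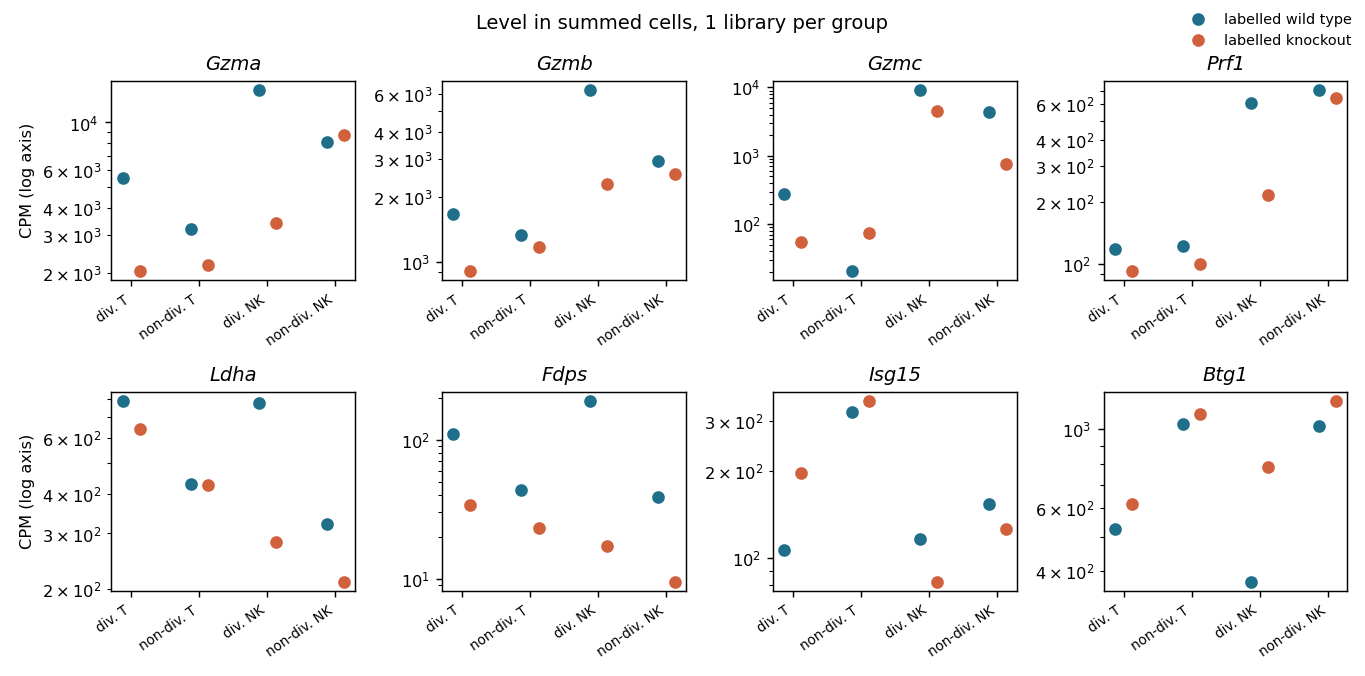
Level (CPM, log y axis, with its own range in each panel) of 8 genes in dividing and non-dividing T and NK cells (x axis), with 1 point per library and no replicate. Gzma is lower in the library labelled knockout in dividing NK cells (14150 and 3405 CPM) but not in non-dividing ones (8076 and 8713 CPM).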

How the data were processed

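The deposited values are whole UMI counts of genes by cells for 2 single-cell 3′ libraries, 1 per group, from filtered matrices of a combined human and mouse reference (36601 human and 32285 mouse genes, per the file headers); only mouse genes were used. The submitters' processing notes name Cell Ranger 7.1.0, Seurat 5.0.2 and the build mm10, without their roles. A cell was kept at 500 or more genes and 10% or less mitochondrial UMIs, and doublets were scored with Scrublet in scanpy 1.11.5 (77 and 164 kept cells called) and left in. In the library labelled wild type the automatic threshold marked 0.289% of cells, so the expected number of highest scores was called.

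UMIs were summed over the cells of a class and given per 1000000 mouse UMIs (CPM). Cells are not replicates, so no test was run; shares carry Clopper-Pearson intervals, CPM ratios exact conditional intervals and ratios of shares Katz intervals, all at 95% and for counting error only. Genes with at least 50 UMIs over the classes compared were measured. The interval code was tested on simulated data. Thinning drew 5000 UMIs per cell without replacement and left out shallower cells.

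The cells and the 23 gene lists were chosen with earlier results of these data known. Named genes were the 10 highest and 10 lowest ratios per comparison at 50 CPM or more, after leaving out mitochondrial, ribosomal protein, haemoglobin, Y-linked, Xist, immunoglobulin and unnamed genes, genes of the rule and genes under 20% of their level in another cell type, together with the 4 largest ratios and the most abundant member of each list described. Others are said to be chosen after their values were seen. Some genes that this rule names are not reported here. Alternatives were other thresholds, gates, depths, gene minimums and cell kinds. Tools were scipy 1.17.1 and numpy 2.4.6 for sums and intervals, pandas 2.3.3, matplotlib 3.10.9 and scikit-learn 1.9.0, under Python 3.11.15.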

Additional observations from a re-analysis of the deposited data

Results flagged for a closer look

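Of the 177 list and named genes measured in both dividing T and dividing NK cells, 6 lay in opposite directions between the libraries. Each was past 1.5-fold in both classes, with intervals that exclude equal levels. The share over all genes was not computed, and the difference was not tested. As log2 ratios, labelled knockout over wild type, Cd74 stood at 1.44 in T and -1.51 in NK cells, H2-Aa at 1.22 and -1.88, H2-Ab1 at 1.73 and -2.54 and H2-Eb1 at 1.24 and -2.76. H2-Aa, H2-Ab1 and H2-Eb1 are MHC class II genes, and Cd74 is the class II invariant chain. For H2-Aa, 1 cell held 29.1% and 15.8% of the UMIs in dividing T cells and 50% and 80% in dividing NK cells. Klra1, a Ly49 receptor, stood at -1.84 and 0.84, and Nr4a1, an immediate early gene of receptor signalling, at 0.996 and -1.16.

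Human genes, which no comparison used, took 0.0159% of the UMIs of dividing T cells and 0.0182% of those of dividing NK cells in the library labelled knockout, above 0.0126% and 0.0147% in the library labelled wild type. Tumour cells, also mouse cells, stood at 0.0250% and 0.0167%.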

How the results depend on the processing

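Of 159 recomputed shares and gene counts 121 stayed close to the reported value, 37 moved and 1 reversed. Of 1100 ratios of named genes and list medians 926 stayed close, 168 moved and 6 reversed. A gene's ratio does not depend on the minimum of 20 or 200 UMIs, so those 93 and 62 values could hardly move. Centring, which subtracts small medians, likewise left all 93 close. Thinning moved 35 and left 25 close. Genes without a finite interval once their leading cell was left out were not counted. Values below are log2 ratios of shares, labelled knockout over wild type, and counts of genes at least 2-fold apart (higher, then lower). As reported, the dividing share of filtered cells was -0.22, of T cells -0.31 and of NK cells -1.74, the double-gated share of dividing cells -0.63, the T share 0.22 and the CD8 share -0.39; the counts were 262 and 58 between libraries in T cells, 144 and 185 in NK cells, 408 and 145 for dividing against non-dividing T cells and 145 and 282 for NK against T cells. Thinning gave -0.52, -0.77, -2.96 and, for double-gated cells, -1.61, with counts of 70 and 34, 3 and 24, 218 and 56, and 39 and 102. At 5 UMIs of Mki67 and Top2a the NK share was -2.62. Y-linked cells alone gave a T share of 0.40, a double-gated share of -2.63 and counts of 71 and 105 in T cells, and no NK cell was left to compare. Their CD8 share was 0.087 (-0.37 to 0.54), the other direction with an interval that includes equal shares. A minimum of 20 UMIs per gene gave 633 and 143, 416 and 500, 259 lower and 242 higher, and one of 200 UMIs gave 48 and 19, 17 and 35, 165 and 51, and 56 and 111. CD8 cells alone gave 104 higher between libraries, 44 lower against non-dividing cells, and 95 and 100 for NK against T cells. With cells above the division percentile, an alternative chosen after seeing the data, the NK share was -2.72 and 228 genes were lower in dividing T cells. Among dividing T cells, Gzmd changed direction to 0.85 with double-gated cells counted as T cells, to 6.52 in Y-linked cells and to 1.21 without its leading cell, the last also chosen after seeing the data. Y-linked cells also turned Klf12 (-0.37), Gzmc (0.28) and Fgf13 (0.22). Removing called doublets, stricter cell filters, centring on the median and leaving out cells with both Xist and Y-linked UMIs, the last chosen after seeing the data, moved no share or count past its bound. The cause of these shifts was not tested. No paired analysis was possible because each group had 1 library. Single genes of dividing NK cells rest on 26 and 18 cells.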

Other observations

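Within the library labelled knockout, dividing T cells with Y-linked UMIs (63 cells) and with Xist only (200 cells) differed in some genes. Of 8284 genes 2.67% were at least 1.5-fold higher in Y-linked cells and 7.59% at least 1.5-fold lower. The mix of subsets also differed, with CD8 cells at 49.2% of the Y-linked and 35.5% of the Xist-only cells, and its part was not tested. Areg, the growth factor amphiregulin, stood at 251.4 CPM in Y-linked and 110 CPM in Xist-only cells, and S100a4, a calcium-binding protein, at 595 and 311 CPM. Ahr, the aryl hydrocarbon receptor, stood at 46.4 and 104 CPM, and Hk2, hexokinase 2, at 33.7 and 71.1 CPM. These genes did not have the largest ratios of the comparison. The share of their UMIs held by 1 cell was not computed.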
